A study of Mus musculus with 4 samples.

Results

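The miRNAs described are both arms of 2 precursors, mmu-miR-455-3p and mmu-miR-455-5p of Mir455 and mmu-miR-140-3p and mmu-miR-140-5p of Mir140. They were chosen by name, and each of the 4 has 1 sequence among the 697 sequences with a mouse miRNA name and the 1482 sequences listed in all. Small RNA was sequenced from exosomes released into the medium by explants of visceral white adipose tissue (vWAT-Exos) or brown adipose tissue (BAT-Exos). The donors were wild-type C57BL/6 mice, labelled as 6 weeks of age, that were fed a high-fat diet (HFD) or a low-fat diet (LFD) for 4 months. Mice aged 6 weeks at sampling could not have had 4 months of diet, so the time to which the labelled age refers is unclear. All 4 groups share the wild-type genotype, and each combination of diet and depot is a group with 1 library. Where values of all libraries are listed, vWAT-Exos come before BAT-Exos and, within a depot, LFD before HFD. Whether a library pools several mice was not stated.

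An miRNA precursor is a short hairpin that is cut into a duplex of a 5p arm and a 3p arm, and usually one arm is loaded into an Argonaute protein, where bases 2 to 8, the seed, pair with target mRNAs. Both arms of a precursor come from the same transcript, and their ratio within a library does not depend on how that library was scaled. In mice, miR-455 is known to promote brown adipocyte differentiation, and miR-140 is known from cartilage, where it is needed for normal growth of the skeleton. Both are also expressed outside these tissues.

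Only the miR-455 precursor lies in a collagen gene. Mir455 lies on the plus strand of chromosome 4 of GRCm38, from 63256851 to 63256932, in intron 10 of the 61-exon transcript of Col27a1, which encodes a fibrillar collagen of cartilage. Mir140 lies on the plus strand of chromosome 8, from 107551244 to 107551313, in an intron of Wwp2, an E3 ubiquitin ligase gene and not a collagen gene. It is intron 16 of the 24-exon transcript Wwp2-201.

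The 4 listed sequences are shown because the arms have different seeds and are counted separately. They are written 5′ to 3′ as DNA letters, with bases 2 to 8 in capitals.
miR-455-3p: gCAGTCCAcgggcatatacact
miR-455-5p: tATGTGCCtttggactacatcg
miR-140-3p: aCCACAGGgtagaaccacggac
miR-140-5p: cAGTGGTTttaccctatggtag

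The RefSeq forms (GRCm38.p6) of miR-455-5p and of the seed of miR-455-3p are the same as those listed, the listed miR-455-3p being 1 base longer at its 3′ end. The listed miR-140-3p is a different form of its arm. It lacks the first base of the RefSeq sequence and has 2 further bases at its 3′ end, so its seed is CCACAGG in place of ACCACAG. The RefSeq form is shown for comparison.
miR-140-3p of RefSeq: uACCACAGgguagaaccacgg

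In the RefSeq hairpin of Mir140, here in DNA letters with the 2 listed arms in capitals, the listed miR-140-5p starts at base 6 and the listed miR-140-3p at base 46.
Mir140: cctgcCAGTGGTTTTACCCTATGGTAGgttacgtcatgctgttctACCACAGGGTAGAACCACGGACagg

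Of the 697 mouse-named sequences, 39 (5.60%) carry a name that marks a 5′ end shorter by 1 base, as miR-140-3p does. How reads of other forms of an arm were assigned was not stated, and the RefSeq form of miR-140-3p has no entry of its own. Seeds were rarely shared. The seed of miR-455-5p also occurs in miR-5129-3p, which had a norm value of 6.81 (LFD) and 0 (HFD) in vWAT-Exos, and of 5.78 (LFD) and 8.47 (HFD) in BAT-Exos. No other listed sequence had the seed of any of the other 3 members.

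The measurement is a normalized read count per sequence, called the norm value. The norm values summed to between 2585590 and 2839846 in the vWAT-Exos libraries and between 5650701 and 5832550 in the BAT-Exos libraries. One read was estimated to be worth a norm value of 1.36 (LFD) or 2.37 (HFD) among vWAT-Exos and of 0.825 (LFD) or 0.706 (HFD) among BAT-Exos, and all 16 member values are whole reads on this scale. HFD vWAT-Exos was the shallowest library, with approximately 1198338 reads, and HFD BAT-Exos the deepest, with approximately 8265829. All intervals given are 95% intervals that cover the counting error of these reads alone, without any spread among mice or preparations. There are no replicates, so no difference between 2 libraries is a tested effect. The label of the tissue was checked on miR-378a-3p, miR-193b-3p and miR-365-3p, miRNAs known from brown fat. All 3 were at least 2-fold higher in BAT-Exos on both diets, their norm values summing to 73629 (LFD) and 116099 (HFD) among vWAT-Exos, against 2144828 (LFD) and 2135741 (HFD) among BAT-Exos. These sums are mostly miR-378a-3p, at 71290 (LFD) and 113025 (HFD) among vWAT-Exos, against 2108530 and 2080467 among BAT-Exos. The 3 were chosen with earlier results of these data known, so the check is no independent evidence.

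miR-140-3p was the most abundant of the 4 in every library. Its norm value was 7946 (LFD) and 9185 (HFD) among vWAT-Exos, against 4567 (LFD) and 7507 (HFD) among BAT-Exos. It ranked between 50 and 71 among mouse miRNA names, and its highest library was 2.01-fold above its lowest, the smallest range of the 4. miR-140-5p, which pairs with it in the hairpin, had norm values of 635 (LFD) and 581 (HFD) among vWAT-Exos, against 234 (LFD) and 215 (HFD) among BAT-Exos. Both vWAT-Exos libraries were above both BAT-Exos libraries for this arm.

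miR-455-5p had norm values of 215 (LFD) and 225 (HFD) among vWAT-Exos, against 1034 (LFD) and 1504 (HFD) among BAT-Exos. Its range over the libraries was 6.99-fold, the widest of the 4, and both BAT-Exos libraries were above both vWAT-Exos libraries. miR-455-3p had norm values of 291 (LFD) and 130 (HFD) among vWAT-Exos, against 721 (LFD) and 819 (HFD) among BAT-Exos. It too was higher in both BAT-Exos libraries, and its lowest value, in HFD vWAT-Exos, rests on 55 approximate reads.

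**Figure D1:**
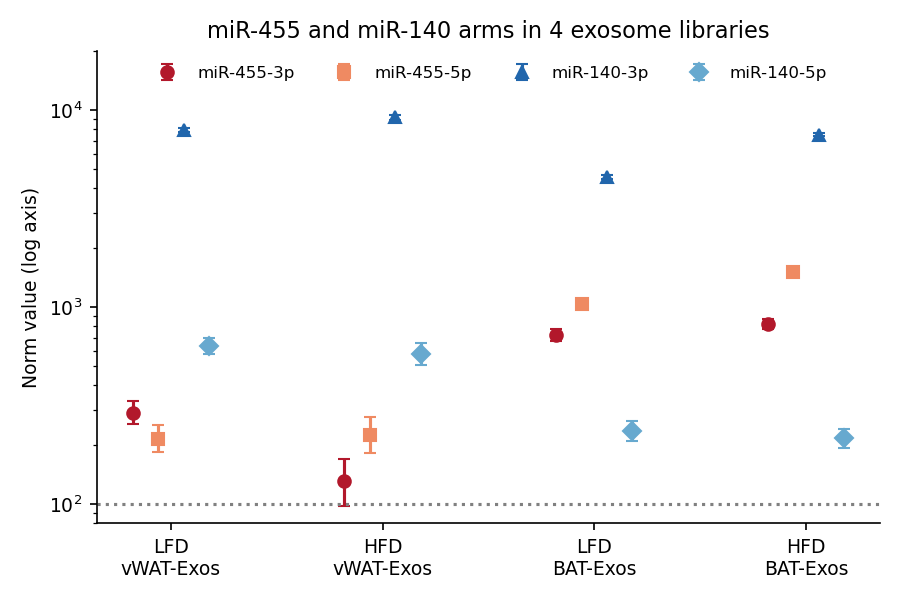
Norm values (log axis) of the 4 arms in the 4 libraries, 1 library per group; bars are exact 95% Poisson intervals of approximate reads and the dotted line marks a norm value of 100. The miR-455 arms are higher in the BAT-Exos libraries, up to 1504, and miR-140-5p is higher in the vWAT-Exos libraries, up to 635.

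The first comparison asked how vWAT-Exos differ between the diets. miR-455-3p was lower in HFD vWAT-Exos, while the other arm of the same precursor was not. The norm value of miR-455-3p was 2.24-fold lower on HFD (interval 1.66 to 3.06), and that of miR-455-5p was 1.05-fold that on LFD (0.803 to 1.36). miR-140-3p was 1.16-fold higher (1.11 to 1.20) and miR-140-5p was 0.915-fold (0.781 to 1.07). An miRNA was called when the norm values of both libraries differed by at least 2-fold and reached 100 in at least 1 of them. Of the 4 members, 1 was called lower and 0 higher, against 4.59% and 5.65% of the 283 mouse sequences at that norm value. The study had picked out this called member in this same comparison, so its call is a description and no independent evidence. The study also measured the called member by quantitative PCR (qPCR) with replicates, which are not part of the data described here. By qPCR the study reports it as lower on HFD in vWAT-Exos and as not significantly decreased in BAT-Exos. On HFD it is also reported as lower in vWAT-Exos than in BAT-Exos.

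The call of miR-455-3p did not turn on the scaling. It was 2.46-fold lower when each library was scaled to its total, and 2.16-fold lower under median-of-ratios scaling. The direction of miR-455-5p did turn, from 1.05-fold to 0.953-fold under scaling to the total, and stayed inside its interval. The values of other cell types' miRNAs in the same libraries were as follows. The norm values of 8 epithelial miRNAs summed to 3785 (LFD) and 7420 (HFD), 5 of them being at least 2-fold higher on HFD, the 5 leukocyte miRNAs to 41888 and 45807, and 7 of 9 mesenchymal stromal miRNAs, those listed, to 219238 and 266620. None of these 20 miRNAs was at 0 in either library, and their part in the miR-455-3p difference was not tested.

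Arm use shows the same difference without any scaling between libraries. The 3p arm made up 57.5% of the miR-455 reads in LFD vWAT-Exos (Wilson interval 52.5 to 62.4), from 214 reads of 3p and 158 of 5p. It made up 36.7% in HFD vWAT-Exos (29.4 to 44.6), from 55 and 95 reads. For BAT-Exos the share was 41.1% on LFD (39.0 to 43.2) and 35.3% on HFD (33.6 to 36.9). LFD vWAT-Exos was thus the one library in which the 3p arm of miR-455 was the more abundant arm, and its interval overlapped none of the others.

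In vWAT-Exos the miR-455 ratio of 3p to 5p was 1.35 (LFD) and 0.579 (HFD), 2.34-fold lower on HFD (1.56 to 3.53). In BAT-Exos it was 0.697 and 0.545, 1.28-fold lower (1.14 to 1.43). Of the 56 precursors with both arms at 100 or more in at least 1 vWAT-Exos library, 7 (12.5%) had an arm ratio that differed at least 2-fold between the diets. Among all 56, the log2 difference had a median of -0.19 and quartiles of -0.60 and 0.18. miR-455, at -1.23, was the second lowest, after miR-335 at -1.50. The other 5 of the 7 were miR-345, let-7d, miR-150 and miR-221, which were lower, and miR-125a, which was higher at 1.29. The place of miR-455 rests on the same miR-455-3p reads as its call, so it is no independent evidence either.

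**Figure D2:**
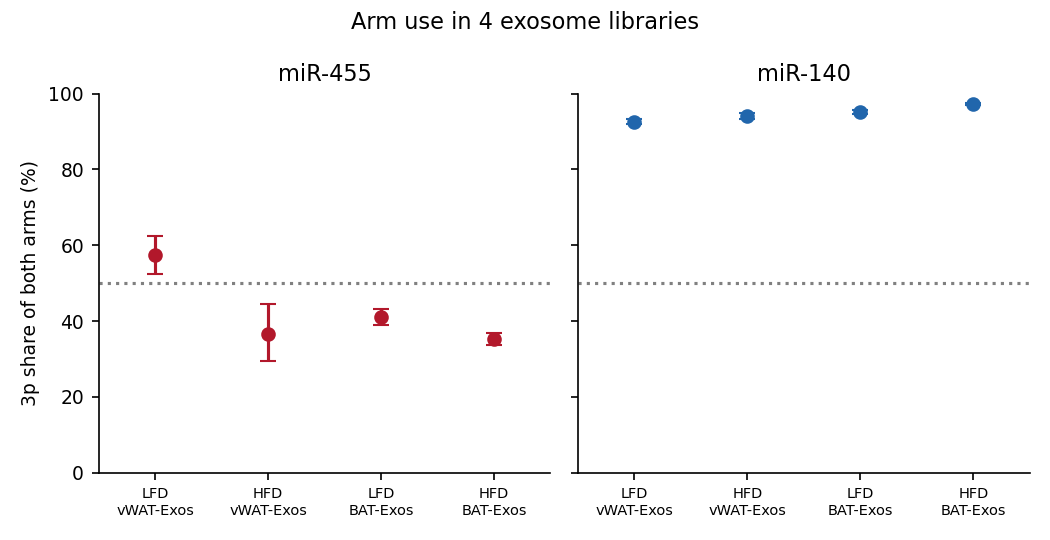
Share of the 3p arm in the approximate reads of both arms (%), by library; bars are Wilson 95% intervals and the dotted line marks equal use. For miR-455 the share is 57.5% in LFD vWAT-Exos and between 35.3% and 41.1% in the other libraries, and for miR-140 it lies between 92.6% and 97.2%.

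**Figure D3:**
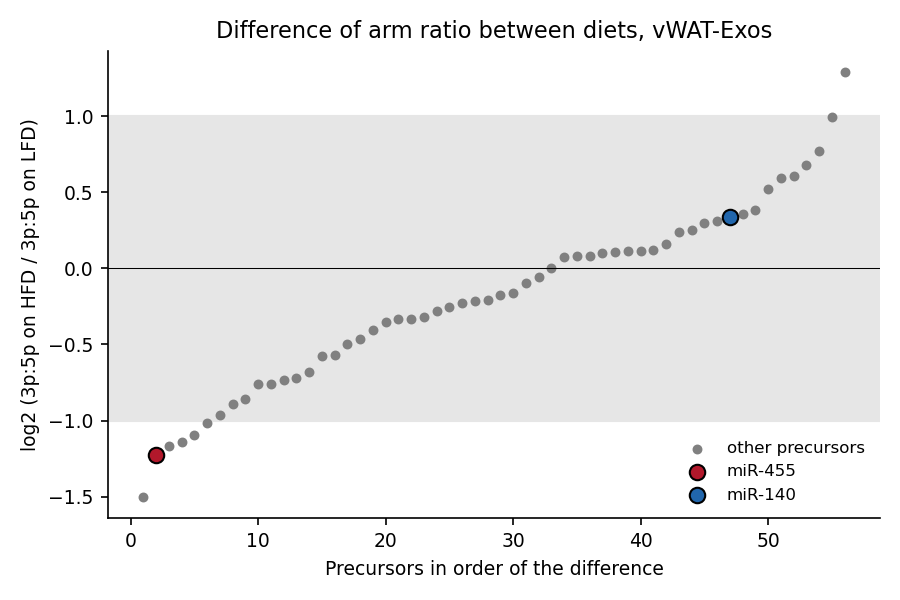
Log2 difference of the 3p to 5p ratio between HFD and LFD vWAT-Exos for the 56 precursors with both arms at a norm value of 100 or more in at least 1 of both libraries, in order. The grey band spans less than 2-fold, miR-455 lies below it at -1.23 and miR-140 inside it at 0.34.

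Nearly all miR-140 reads were assigned to its 3p arm. Among vWAT-Exos the 3p share was 92.6% on LFD (91.9 to 93.2) and 94.1% on HFD (93.3 to 94.7). Among BAT-Exos it was 95.1% on LFD (94.5 to 95.6) and 97.2% on HFD (96.9 to 97.5). It was higher on HFD in both depots and higher in BAT-Exos on both diets. The diet differences of the 2 precursors were therefore opposite in sign, with the 3p to 5p ratio of miR-140 being 1.26-fold higher on HFD in vWAT-Exos (1.07 to 1.49) and 1.79-fold higher in BAT-Exos (1.51 to 2.12). Neither reached 2-fold.

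The second comparison asked the same of BAT-Exos. None of the 4 members was called there, against 7.42% of 283 mouse sequences higher and 12.4% lower on HFD. The largest difference was in miR-140-3p, which was 1.64-fold higher on HFD (1.59 to 1.70), followed by miR-455-5p at 1.45-fold (1.36 to 1.56). miR-455-3p was 1.14-fold higher (1.04 to 1.24), against 2.24-fold lower in vWAT-Exos. miR-140-5p was 0.918-fold (0.779 to 1.08), close to its value in vWAT-Exos. The arm ratio differed at least 2-fold in 7 of 59 precursors (11.9%), and in neither miR-455 nor miR-140.

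Striated muscle miRNAs differed more. All 6 of the 7 that reached a norm value of 100 were at least 2-fold higher in HFD BAT-Exos, with sums of 4193 (LFD) and 22933 (HFD) over the 7 and miR-133a-3p at 1829 and 13086, while miR-208a-3p was at 0 in both. Of the 8 epithelial miRNAs, 5 of the 6 at that norm value were lower, with sums of 8547 and 5977, and miR-375-3p was at 0 in both. The 5 leukocyte miRNAs summed to 4911 and 4020, and 2 of them were at least 2-fold lower on HFD. Of the 3 listed erythroid miRNAs, 2 were at least 2-fold lower on HFD and 0 higher, with a median log2 ratio of -2.36 and miR-144-3p at 808 and 142. Their sum, 11743 and 14002, was mostly miR-451a. The part of these other tissues in the member values was not tested.

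**Figure D4:**
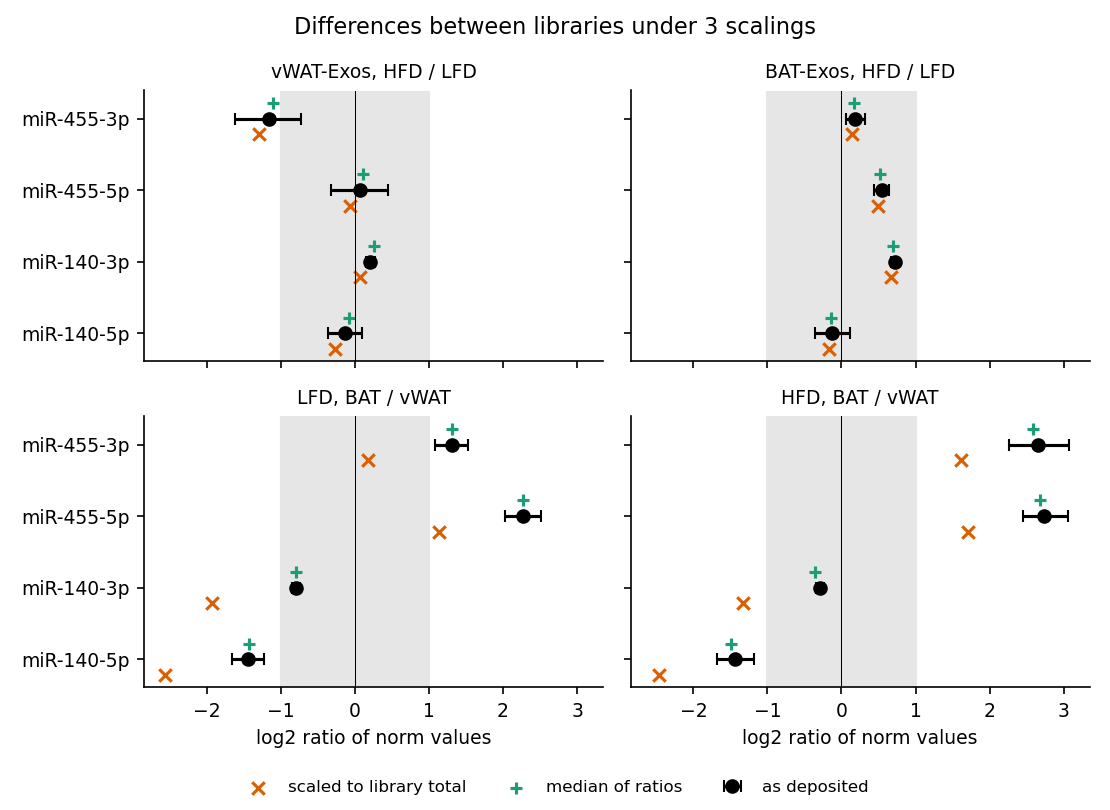
Log2 ratio of norm values of the 4 arms in the 4 comparisons; black points are the deposited values with 95% counting intervals, crosses are scaled to library totals, plus signs are median-of-ratios scaled, and the grey bands span less than 2-fold. In vWAT-Exos only miR-455-3p lies outside the band, at -1.16, and between depots scaling to the total moves every point down by 1.04 to 1.13.

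The remaining comparisons set BAT-Exos against vWAT-Exos, once on each diet. On both diets the miR-455 arms were higher and the miR-140 arms lower in BAT-Exos. On LFD, miR-455-5p was 4.81-fold higher (4.07 to 5.71) and miR-455-3p 2.47-fold higher (2.13 to 2.88) in BAT-Exos. On HFD the folds were 6.68 (5.44 to 8.30) and 6.29 (4.79 to 8.40). miR-140-5p was 2.71-fold lower in BAT-Exos on LFD (2.33 to 3.15) and 2.70-fold lower on HFD (2.27 to 3.20). miR-140-3p was 1.74-fold lower on LFD (1.68 to 1.81) and 1.22-fold lower on HFD (1.18 to 1.27).

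On LFD, 2 members were called higher and 1 lower in BAT-Exos, against 29.4% and 23.4% of 303 mouse sequences. On HFD the same members were called, against 32.2% and 30.6% of 307. Calls between depots were thus frequent among all miRNAs. They also depended on the scaling, since the BAT-Exos totals were about 2 times those of vWAT-Exos and miR-378a-3p alone made up 37.3% and 35.7% of them. Scaling to the totals moved the median log2 ratio of the sequences listed in both libraries, 300 on LFD and 298 on HFD, from 0.19 to -0.94 on LFD and from 0.20 to -0.83 on HFD. The share of calls that were higher in BAT-Exos then moved from 55.6% to 18.8% on LFD and from 51.3% to 29.0% on HFD.

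Under that scaling miR-455-3p was 1.13-fold higher in BAT-Exos on LFD and lost its call, and miR-455-5p was 2.20-fold higher. On HFD the 2 arms were 3.06-fold and 3.25-fold higher. miR-140-3p was called lower, at 3.80-fold on LFD and 2.51-fold on HFD, and miR-140-5p was 5.92-fold and 5.54-fold lower. Under median-of-ratios scaling the 3 members called as deposited were called on both diets, and miR-140-3p was not called on either. The direction of each member was the same under all 3 scalings.

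The ratio of miR-455 to miR-140 within a library avoids this choice. For the 5p arms among vWAT-Exos it was 0.339 on LFD (0.281 to 0.407) and 0.388 on HFD (0.303 to 0.493). Among BAT-Exos it was 4.41 on LFD (3.88 to 5.04) and 6.99 on HFD (6.20 to 7.91). The miR-140-5p reads thus outnumbered those of miR-455-5p in vWAT-Exos, and the reverse held in BAT-Exos. The ratio was 13.0-fold higher in BAT-Exos on LFD (10.4 to 16.3) and 18.0-fold on HFD (13.7 to 23.8). For the 3p arms the ratio was 0.0367, 0.0142, 0.158 and 0.109 in the same order of libraries, with miR-140-3p above miR-455-3p throughout. It was 4.30-fold higher in BAT-Exos on LFD (3.68 to 5.04) and 7.69-fold on HFD (5.85 to 10.3).

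**Figure D5:**
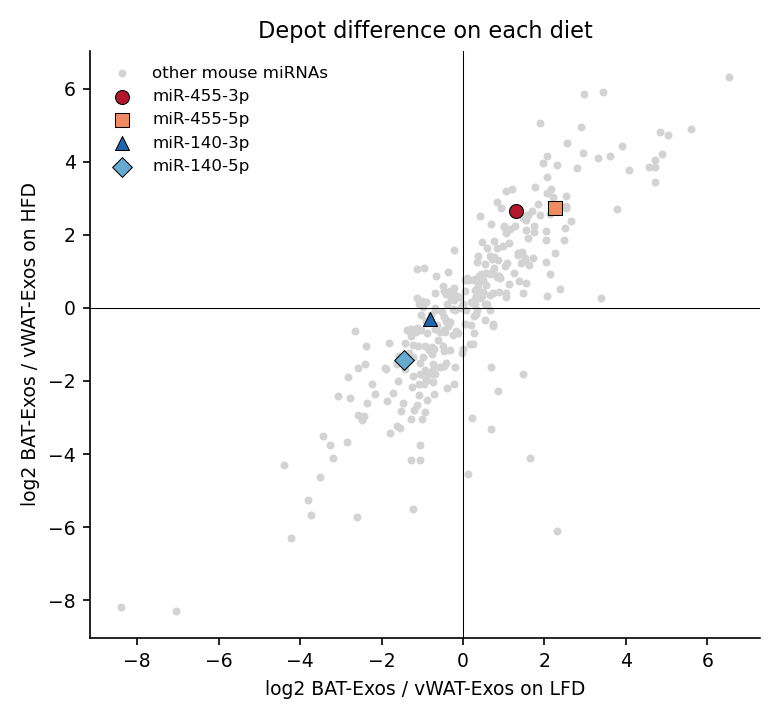
Log2 ratio of BAT-Exos to vWAT-Exos on LFD (x axis) and on HFD (y axis) for mouse miRNAs listed in all 4 libraries with a norm value of 100 or more in at least 1, as deposited. The miR-455 arms lie in the upper right, at 1.31 and 2.65 for miR-455-3p and 2.27 and 2.74 for miR-455-5p, and the miR-140 arms in the lower left.

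The arm ratio of miR-455 was 1.94-fold lower in BAT-Exos than in vWAT-Exos on LFD (1.55 to 2.45) and 1.06-fold lower on HFD (0.743 to 1.51). That of miR-140 was 1.56-fold higher in BAT-Exos on LFD (1.33 to 1.82) and 2.20-fold higher on HFD (1.85 to 2.63). Differences of 2-fold were common between depots, in 22 of 63 precursors (34.9%) on LFD and 33 of 64 (51.6%) on HFD.

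A linear model over all 4 libraries (limma on log2(norm value + 1), diet and depot as terms) gave the depot effect over both diets. Each sequence has 1 residual degree of freedom, the difference between the diet effects of both depots, and none from replicates. limma pooled this error with the variances of all fitted sequences, which supplied 2.96 of the 3.96 degrees of freedom in total. The standard errors and p-values below therefore rest largely on those other sequences. The log2 effect of miR-455-5p was 2.50 ± 0.53 (SE), with a limma adjusted p of 0.0488, and it was the one member called, against 19.5% of the 512 sequences fitted. Under 9 alternatives its adjusted p ranged from 0.00312 to 0.141, and it was above 0.05 under scaling to the total (0.120), under median-of-ratios scaling (0.0559) and with no floor on low values (0.129). Without the LFD or the HFD vWAT-Exos library, in a model of depot alone, it was 0.135 and 0.141. The log2 effects of miR-455-3p, miR-140-5p and miR-140-3p were 1.97 ± 0.62, -1.43 ± 0.52 and -0.54 ± 0.53, with limma adjusted p of 0.106, 0.131 and 0.480. For diet, limma called 0 of the 512 sequences (0.0%), while 27 had an unadjusted p under 0.05. The limma adjusted p of the members lay between 0.940 and 0.974.

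Markers of some other cells also differed between the depots, in values as deposited unless stated otherwise. The 5 leukocyte miRNAs, none of them at 0, summed to 41888 (LFD) and 45807 (HFD) among vWAT-Exos, against 4911 and 4020 among BAT-Exos. Not all 5 differed: 4 were at least 2-fold lower in BAT-Exos on LFD and 3 on HFD, with 0 higher on either diet. Over all sequences 23.4% were lower on LFD and 30.6% on HFD. The 7 striated muscle miRNAs summed to 1560 and 1385 among vWAT-Exos, against 4193 and 22933. As deposited, the epithelial miRNAs differed in opposite directions on the diets. On LFD, 3 of the 6 at a norm value of 100 were higher in BAT-Exos and 0 lower (median log2 ratio 1.16). On HFD 1 of 8 was higher and 6 were lower (median -3.70). The LFD direction depended on the scaling, since scaling to the library totals moves log2 ratios on LFD by -1.13. With every library scaled to the same total, the epithelial sums on LFD were close, at 1464 (vWAT-Exos) and 1513 (BAT-Exos). On HFD the scaled sums were 2613 (vWAT-Exos) and 1025 (BAT-Exos), still lower in BAT-Exos. Of the 3 listed erythroid miRNAs, 1 was higher and 0 lower on LFD, and 1 was higher and 2 were lower on HFD, with sums of 3422 and 5131 among vWAT-Exos, against 11743 and 14002. The 7 listed mesenchymal stromal miRNAs differed less. On LFD 1 was higher and 0 lower in BAT-Exos (median log2 ratio -0.16), and on HFD 1 was higher and 2 were lower (median -0.38). In bulk exosomes, fewer vesicles from a cell type and less of an miRNA per vesicle cannot be told apart. The part of these cells in the depot difference of the members was not tested.

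Other miRNAs with known roles in brown adipogenesis or in cartilage were counted for context, in lists chosen with earlier results of these data known. Of 24 brown adipogenesis miRNAs, 23 reached a norm value of 100 between the depots. On LFD, 9 were at least 2-fold higher and 3 lower in BAT-Exos, with a median log2 ratio of 0.85 against 0.19 over all sequences at that norm value, of which 29.4% were higher and 23.4% lower. On HFD, 11 were higher and 6 lower, with a median of 0.85 against 0.27 over all, of which 32.2% were higher and 30.6% lower. The most abundant were miR-378a-3p, which lies in the gene of a transcriptional coactivator, and miR-22-3p. The norm value of miR-22-3p was 159301 (LFD) and 210118 (HFD) among vWAT-Exos, against 286228 and 378447 among BAT-Exos. Its log2 ratio of BAT-Exos to vWAT-Exos was 0.85 on both diets, as deposited. Scaling to the totals moves log2 ratios by -1.13 on LFD and -1.04 on HFD, which turns its direction to lower in BAT-Exos. Of 22 cartilage and skeletal miRNAs, 17 were listed and 14 reached 100. In BAT-Exos 1 was higher and 4 were lower on either diet, with medians of -0.37 and -0.47, below the 0.19 and 0.27 over all. The 4 of 14 lower are close to the 23.4% and 30.6% lower over all sequences. The 1 of 14 higher is below the 29.4% and 32.2% higher over all. Their most abundant members were miR-29a-3p, which targets collagen mRNAs, at 253191, 216172, 282796 and 364404 in the order of libraries given above, and miR-27b-3p at 31492, 31735, 79680 and 85988. Between the diets in vWAT-Exos, 1 of 23 brown adipogenesis miRNAs was higher and 1 lower, and 0 of 14 cartilage miRNAs differed by 2-fold, against 5.65% higher and 4.59% lower over all.

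The miRNAs with the most similar profiles were found by the Euclidean distance between log2 norm values centred over the 4 libraries, among 320 sequences that reached 100 in at least 1 library. With 4 points each, this is a description. For miR-455-3p the nearest was miR-542-3p (distance 0.17), with norm values of 47.7, 23.7, 122 and 155. It was followed by let-7a-1-3p (0.28) and let-7d-3p (0.30). For miR-455-5p they were miR-322-5p (0.21), miR-450b-5p (0.30) and miR-30c-5p (0.32). miR-322-5p had a norm value of 539, 647, 3125 and 4448 in the same order. Mir450b, Mir542 and Mir322 lie close together on chromosome X of GRCm38, between 53047997 and 53054349.

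For miR-140-3p the nearest were miR-872-5p (0.095), miR-382-3p (0.20) and miR-342-3p (0.23). miR-872-5p, at 900, 1045, 480 and 812, differed less than any other from the profile of a member. For miR-140-5p they were miR-224-5p (0.16), miR-10b-3p (0.18) and miR-340-5p (0.20), with miR-224-5p at 2337, 2033, 763 and 696. The arms of one precursor were not among each other's 3 nearest profiles, for miR-455 or for miR-140.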

How the data were processed

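Per the labels and the study's methods, RNA was extracted with Trizol, libraries were made with TruSeq Small RNA kits, and single-end reads of a HiSeq 2500 were processed by the authors with ACGT101-miR, which removed adapter dimers, low-complexity reads, other RNA families and repeats. For these mouse libraries the build named in the submitters' processing notes is GRCh38, which is human. The deposited values are a normalized signal per sequence, the norm value. No normalization method is given in the sources used here.

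Each sequence was taken once. The value of 1 read was the commonest ratio of norm value to the number in the name of predicted entries listed in 1 library alone (2 of 5 and 3 of 3 entries for vWAT-Exos on LFD and HFD, and 127 of 146 and 100 of 112 for BAT-Exos). Of all values above 0, between 83.7% and 88.2% came within 0.01 of a whole read. The reads are therefore approximate, and no count test was run. The commonest step between neighbouring values gave the same reads for all members. Intervals of folds are exact conditional binomial, and those of arm ratios are conditional odds ratio intervals. The fold of 2 and the norm value of 100 are the study's, and its p step was left out. The arm ratio comparison was added after the data were seen. The members and lists were chosen with earlier results of these data known. The miRNAs named are the members, the 3 nearest profiles of each, sequences that share a seed, and the 2 most abundant of a list, and the precursors named for their arm ratio were chosen after their values were seen. limma 3.58.1 (R 4.3.3) fitted all mouse sequences at 10 or more in at least 1 library, with Benjamini-Hochberg adjustment over all of them, and was tested on simulated data. Other steps ran in Python 3.11.15 (scipy 1.17.1, pandas 2.3.3, numpy 2.4.6), with plots by matplotlib 3.10.9. Loci come from GENCODE M21 and sequences from RefSeq GRCm38.p6, in which 3 of the 4 members have a mature entry, or from the deposited table.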

Additional observations from a re-analysis of the deposited data

Results flagged for a closer look

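The diet difference of miR-455-3p had opposite signs in the depots, lower on HFD in vWAT-Exos and higher in BAT-Exos. Subtracting the log2 difference of BAT-Exos from that of vWAT-Exos gave -1.35. With 1 library per group this difference was not tested, and the fold in BAT-Exos was 1.14. The other 3 members had the same sign in both depots, as deposited.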

How the results depend on the processing

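With 1 library per condition, every fold between 2 libraries lacks a replicate error. Of the 16 folds of the members, 9 moved beyond their counting interval under scaling to the library totals and 1 under median-of-ratios scaling. A pseudocount of 1 moved none. The floors, the fold threshold and the wider background cannot change a fold and bear only on calls. The members called in BAT-Exos between the diets numbered 1 in place of 0 at a fold threshold of 1.5 (miR-140-3p). Between depots, scaling to the totals called 3 members on LFD, but not the same 3, and 4 on HFD. Each member has 1 sequence and no entry from another species, so those alternatives changed nothing, nor did any alternative change a 3p share. In the limma fit for depot, 3 members were called with a pseudocount of 10, 0 with no floor and 0 under median-of-ratios scaling. Under scaling to the library totals 1 member was called, but not the same one. It was miR-140-5p (log2 effect -2.51, limma adjusted p 0.0498) in place of miR-455-5p (limma adjusted p 0.120). Of all 512 or 697 sequences limma then called 188 with a pseudocount of 10, against 100, and 0 with no floor, where 178 had an unadjusted p under 0.05. With 1 vWAT-Exos library left out it called 0, with 159 or 148 under that unadjusted p, and without HFD BAT-Exos it called 59. For diet it called 0 under each alternative run. A floor of 100 in both libraries left 16 called in vWAT-Exos, 33 in BAT-Exos, 102 on LFD and 120 on HFD, and a floor of 10 gave 111, 136, 278 and 330. A fold of 1.5 gave 90 in vWAT-Exos and 115 in BAT-Exos. In vWAT-Exos the calls that were higher on HFD made up 55.2% as deposited, 32.5% under scaling to the totals and 66.7% under median-of-ratios scaling. Arm ratio differences in vWAT-Exos numbered 24 of 104 precursors with arms at 10 or more and 20 of 56 at a fold of 1.5, against 7 of 56. Between the diets in BAT-Exos they numbered 25 of 100 and 23 of 59, and 2 of 46 with both arms at 100 in both libraries. Between depots they numbered 38 of 100 on LFD and 53 of 97 on HFD at the lower floor, 40 of 63 on LFD at a fold of 1.5, and 17 of 39 on HFD with both arms at 100 in both libraries.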
